A study of Mus musculus with 16 samples.

Results

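The enzymes that write, copy and remove cytosine methylation were followed in single cells of mouse testes collected at postnatal day 2 (P2). The set is 8 genes, *Dnmt1*, *Uhrf1*, *Dnmt3a*, *Dnmt3b*, *Dnmt3l*, *Tet1*, *Tet2* and *Tet3*, and all 8 were among the 30451 genes of the table. They were listed by name, by a rule that uses no measured value, but with earlier results of these data known. Testes were those of wild-type mice and of mice labelled as *Ddx5* conditional knockouts, in which a floxed *Ddx5* allele is removed by a Cre driven by the germ cell gene *Mvh*. An *Oct4*-GFP reporter marks germ cells in this study, and UMIs of GFP and CRE were counted with the mouse genes. The breeding described by the study passes through males that carry a deleted *Ddx5* allele, so the allele of somatic cells is not known here. GEO lists 8 libraries per genotype, but the barcodes of the table do not tell them apart, so each genotype counts as 1 library here and no difference between genotypes has a replicate check.

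The table does not pair its barcode suffixes with genotypes. The suffix taken as wild type is the group that keeps 6329 cells under the filter of the study and holds 0 CRE UMIs. The other suffix keeps 4950 cells and holds 20 CRE UMIs. *Ddx5* itself went against the label. Levels are given as UMIs per 1000000 UMIs of the cells summed (CPM). *Ddx5* stood at 1736 CPM in germ cells of the second library and at 1226 CPM in wild-type germ cells, a ratio of 1.42 (95% counting interval 1.31 to 1.53), so "the library labelled *Ddx5* knockout" is written throughout. Whether the 3′ tags of *Ddx5* lie outside the deleted part is not known from the table, in which case they would not check the deletion. All 20 CRE UMIs lay in 9 of the germ cells described below. In somatic types the *Ddx5* ratio lay between 0.875 in Leydig and 0.9503 in Sertoli cells, with intervals under 1. The libraries held 84263163 and 67558106 UMIs, with medians of 11170 and 11669 UMIs in the cells kept, and 12 barcode sequences occurred in both.

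Cells were assigned by marker genes. Germ cells needed a UMI of at least 3 of the 4 genes *Dazl*, *Ddx4*, *Mael* and *Stk31*, Sertoli cells at least 3 *Amh* UMIs, Leydig cells at least 20 UMIs of *Cyp11a1*, *Cyp17a1* and *Hsd3b1* together, peritubular myoid cells at least 5 *Acta2* and 2 *Myh11* UMIs, and stroma at least 1 *Pdgfra* UMI with at most 2 of *Amh*. A cell that passed several of the first 4 gates was left out, and stroma held only cells that passed none of them. The wild-type library then gave 83 germ, 2174 Sertoli, 166 Leydig, 723 myoid and 2859 stromal cells. The library labelled knockout gave 12, 1602, 129, 501 and 2496. Markers that the gates did not use, summed over both libraries, followed the names: all 7 germ, all 7 Sertoli and all 5 Leydig markers were highest in the cells of that name, as were 4 of 5 myoid markers (*Des* was higher in stroma) and 5 of 6 stromal markers (*Tcf21* was marginally higher in myoid cells). Germ cells entered with 2646009 wild-type UMIs and 463254 of the other library, so their check is mostly one of wild-type cells. Within a type, cells with at least 4 UMIs of the proliferation genes *Mki67* and *Top2a* together were called cycling and those with at most 1 non-cycling. Scrublet, run per library, called 4.79% of wild-type cells and 6.22% of the others doublets, which were kept in the values given here.

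DNA methylation is copied after replication by DNMT1, which UHRF1 brings to hemimethylated DNA, so these proteins act while a cell divides. DNMT3A and DNMT3B methylate DNA that carried no mark, and DNMT3L, which has no catalytic activity of its own, stimulates them. In male germ cells the genome is stripped of methylation in the fetus and is methylated anew around birth, and DNMT3L with DNMT3A is known to be needed for this step. TET1, TET2 and TET3 oxidize 5-methylcytosine, which starts its removal.

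*Dnmt1* and *Uhrf1* are the members that rose with *Mki67* and *Top2a* in every somatic type tested, and a start region of each is shown for that reason. The windows are from RefSeq on GRCm38.p6, cover 250 bases before to 50 bases after an annotated start, and are written 5′ to 3′ on the strand of the gene. Capitals mark the letters TTTCGCGC or TTTGGCGC on either strand, forms of the site that E2F factors are known to bind at genes of the G1/S transition. *Dnmt1* has 3 such windows and *Uhrf1* has 2, and the 1 of each that holds these letters is shown. The *Dnmt1* window lies at chr9:20952574-20952873 on the minus strand, and the *Uhrf1* window at chr17:56304063-56304362 on the plus strand. The annotated genes begin further upstream, at chr9:20959888 and chr17:56303337.

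Dnmt1: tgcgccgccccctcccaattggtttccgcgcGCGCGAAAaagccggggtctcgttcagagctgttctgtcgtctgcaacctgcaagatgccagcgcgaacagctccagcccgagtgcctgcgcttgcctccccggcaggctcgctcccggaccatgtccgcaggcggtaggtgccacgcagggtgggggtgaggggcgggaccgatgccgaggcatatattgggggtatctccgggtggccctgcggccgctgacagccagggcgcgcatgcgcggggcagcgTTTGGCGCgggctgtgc
Uhrf1: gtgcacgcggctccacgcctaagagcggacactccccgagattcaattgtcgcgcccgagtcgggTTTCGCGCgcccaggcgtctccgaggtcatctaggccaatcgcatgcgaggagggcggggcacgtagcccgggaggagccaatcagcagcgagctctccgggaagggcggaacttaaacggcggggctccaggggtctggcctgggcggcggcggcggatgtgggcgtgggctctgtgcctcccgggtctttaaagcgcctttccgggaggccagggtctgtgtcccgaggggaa

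In the *Dnmt1* window the letters TTTCGCGC begin 219 bases before the start on the opposite strand, and TTTGGCGC begins 33 bases after it. In the *Uhrf1* window TTTCGCGC begins 185 bases before the start. The 8 members have 15 such windows, of which these 2 hold the letters. The letters TTTGAA, known from genes of G2 and mitosis, and CCAAT were searched as well, and were found in 2 and 5 of the 15 windows: TTTGAA in windows of *Dnmt1* and *Dnmt3b*, and CCAAT in windows of *Dnmt1*, *Uhrf1* and *Tet3*. Of all windows 17.9% hold TTTGAA and 37.4% hold CCAAT. Among 32851 mouse windows of this length 0.813% hold either E2F form. A match describes the sequence and does not show that a factor binds there. The search was chosen after the levels had been seen.

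*Dnmt1*, the maintenance methyltransferase, was found in every cell type, at an order that was the same in both libraries among somatic cells. Wild-type germ cells held 223 CPM (95% counting interval 205 to 242), Sertoli cells 107 CPM, myoid cells 86.6 CPM, stroma 64.9 CPM and Leydig cells 21.0 CPM. In the library labelled knockout the somatic types held 110, 91.4, 59.1 and 20.1 CPM in the same order, and counting intervals of neighbouring somatic types did not overlap in either library. *Uhrf1*, which targets DNMT1 to hemimethylated sites, stood at 198 CPM in wild-type germ cells, 63.6 CPM in myoid cells, 55.5 CPM in Sertoli cells, 50.7 CPM in stroma and 2.94 CPM in Leydig cells. In the library labelled knockout the values of Sertoli (64.5 CPM) and myoid cells (55.7 CPM) had changed places, so these types have no stable order for *Uhrf1*, whereas stroma (48.1 CPM) and Leydig cells (6.04 CPM) again came after both. A lower level in a sum of cells can reflect fewer expressing cells or less RNA in each, which a sum cannot tell apart.

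**Figure D1:**
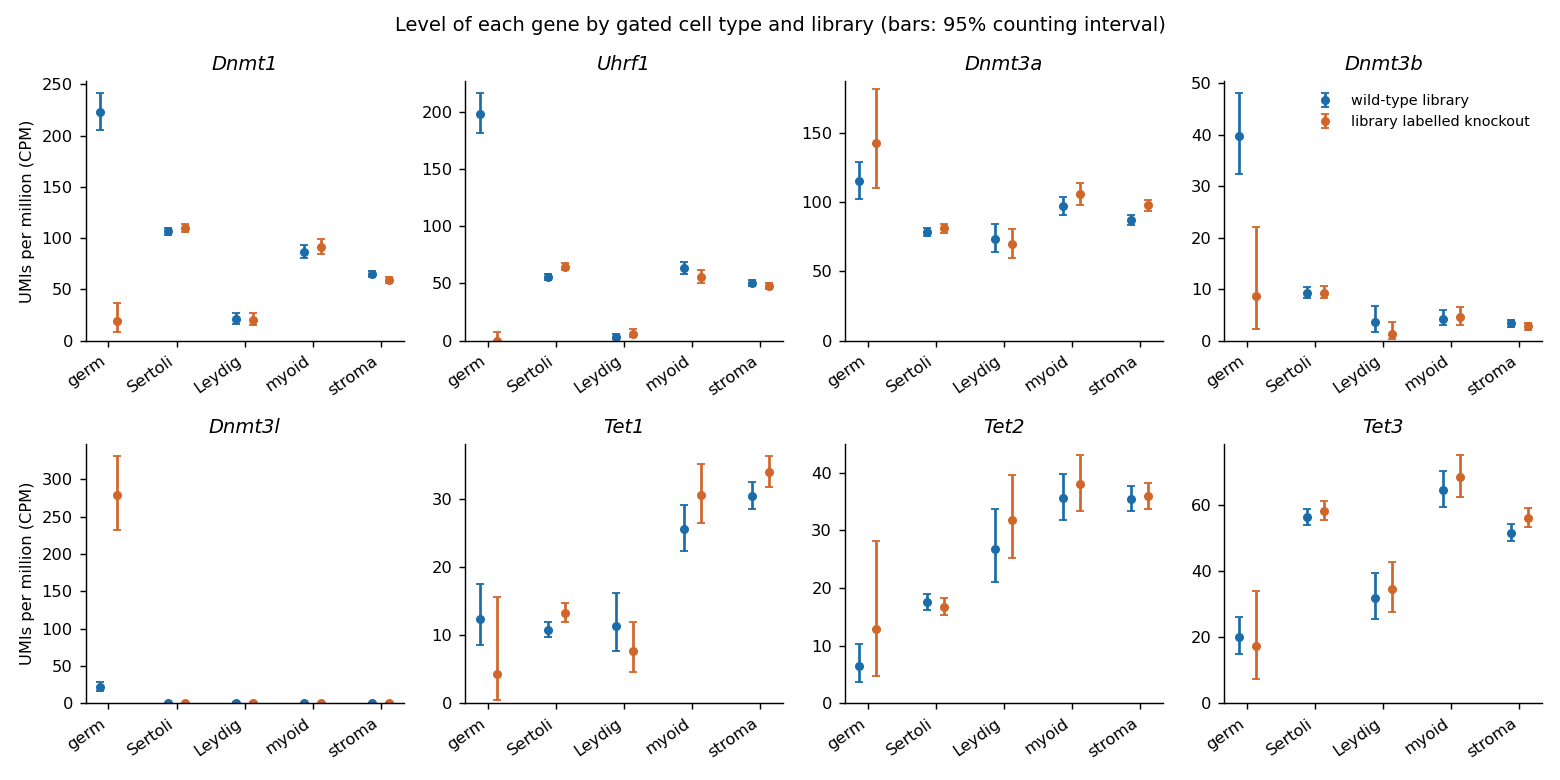
Level of each member in UMIs per 1000000 (CPM, y axis, from 0) in each gated cell type (x axis) of the wild-type library (blue) and the library labelled knockout (orange), all cycle states. Points are sums over cells and bars are 95% Poisson intervals. Somatic points of both libraries lie close together for every member, whereas in germ cells *Dnmt1* and *Uhrf1* were at 223 and 198 CPM in wild type against 19.4 and 0 CPM in the other library, and *Dnmt3l* at 21.9 against 278 CPM.

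To ask how far the members differ between cycling and non-cycling cells, UMIs were summed per library, type and cycle state and tested with edgeR's quasi-likelihood test with the library as a block, over 15228 genes. Leydig cells had 2 and 3 cycling cells and could not be tested. Each class has 2 sums, so an adjusted p measures the spread between these libraries, which carry different labels. *Dnmt1* rose in cycling cells of all 3 types tested. In Sertoli cells it went from 77.6 to 137 CPM in wild type and from 73.0 to 142 CPM in the library labelled knockout (log2 fold change 0.88 ± 0.06 SE, edgeR adjusted p = 6.6e-14). In myoid cells it went from 48.1 to 154 CPM and from 58.4 to 155 CPM (1.45 ± 0.09, edgeR adjusted p = 1.4e-14), and in stroma from 38.4 to 142 CPM and from 34.5 to 137 CPM (1.81 ± 0.07, edgeR adjusted p = 3.0e-21). Cycling cells of the 3 types therefore held *Dnmt1* at 137 to 155 CPM, and the types were further apart when not cycling, at 34.5 to 77.6 CPM.

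*Uhrf1* rose more steeply. In Sertoli cells its level went from 27.0 to 82.5 CPM in wild type and from 26.6 to 92.3 CPM in the other library (log2 fold change 1.69 ± 0.08 SE, edgeR adjusted p = 1.9e-18). In myoid cells the values were 21.0 and 135 CPM, and 24.3 and 115 CPM (2.39 ± 0.12, edgeR adjusted p = 2.7e-17). Stroma went from 18.6 to 138 CPM and from 17.7 to 140 CPM (2.82 ± 0.08, edgeR adjusted p = 1.3e-24), a 7.04-fold difference. The groups did not overlap in any type. The background of these tests is large. Of all genes tested 25.6% passed in Sertoli cells, 23.1% in myoid cells and 41.8% in stroma, with 2110 higher and 1790 lower, 1452 and 2066, and 2309 and 4051 in turn. With DESeq2's size factors in place of TMM scaling the splits were 1778 and 2246, 1664 and 1551, and 2784 and 3035, and the calls of *Dnmt1* and *Uhrf1* were kept.

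**Figure D2:**
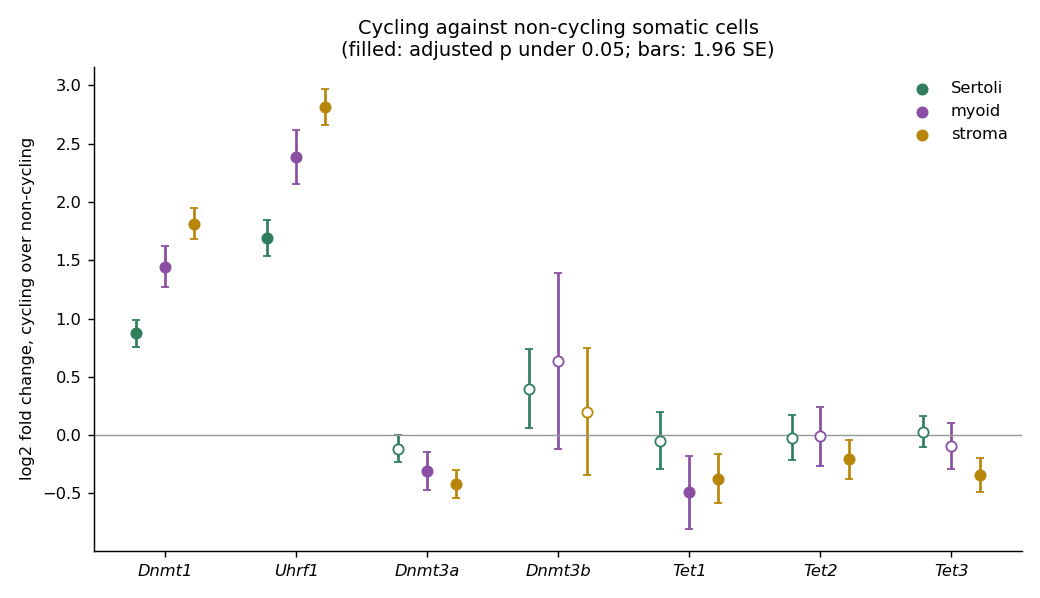
Log2 fold change (y axis) of 7 members between cycling and non-cycling Sertoli (green), myoid (purple) and stromal (gold) cells, from edgeR. Bars are 95% normal intervals, filled points have an adjusted p under 0.05 and open points do not, and *Dnmt3l* had too few somatic UMIs to be tested. *Uhrf1* lies between 1.69 and 2.82 and *Dnmt1* between 0.88 and 1.81, and no other member exceeds 0.64.

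The other members did not follow *Dnmt1* and *Uhrf1*. *Dnmt3a*, a de novo methyltransferase, fell in stroma, from 91.4 to 75.7 CPM in wild type and from 104 to 82.3 CPM in the other library (log2 fold change -0.42 ± 0.06 SE, edgeR adjusted p = 9.5e-07), and in myoid cells (-0.31 ± 0.08, adjusted p = 0.0058). In Sertoli cells it was 78.4 and 76.3 CPM, and 86.3 and 76.3 CPM, and did not pass (-0.12 ± 0.06, adjusted p = 0.15). *Dnmt3b*, the other de novo enzyme, passed in no type, at estimates of 0.40 ± 0.17 in Sertoli cells, 0.64 ± 0.39 in myoid cells and 0.20 ± 0.28 in stroma. *Tet1* fell in myoid cells (-0.49 ± 0.16, adjusted p = 0.023) and in stroma (-0.38 ± 0.11, adjusted p = 0.0048), where wild-type levels were 31.8 CPM in non-cycling and 25.6 CPM in cycling cells. *Tet3* fell in stroma (-0.34 ± 0.08, adjusted p = 0.00043) and did not pass in myoid (-0.09 ± 0.10) or Sertoli cells (0.03 ± 0.07). *Tet2* stood at the threshold in stroma (-0.21 ± 0.09, adjusted p = 0.0496) and missed it under each of 8 alternative settings, with adjusted p from 0.061 to 0.49. The call of *Tet1* in myoid cells was lost under 5 of 8 alternatives and that of *Dnmt3a* in myoid cells under 2. The median log2 fold change of all genes was itself -0.14 in stroma and -0.12 in myoid cells. From the CPM of each library alone, with no test, stroma gave smaller falls than the fit. They were -0.33 to -0.27 for *Dnmt3a*, -0.31 to -0.20 for *Tet1* and -0.24 to -0.20 for *Tet3*.

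These are shares of a cell's UMIs. The limit for cycling is a number of UMIs and so favours deeper cells, and UMIs per cell were 1.48 to 1.59 times as many in cycling cells, depending on type and library. Counted per cell rather than as a share, *Uhrf1* was 4.85 to 12.5 times and *Dnmt1* 2.80 to 6.26 times as abundant in cycling cells. *Dnmt3a* was 1.24 to 1.55 times and *Tet1* 1.02 to 1.60 times as abundant, so their UMIs per cell were no fewer in cycling cells where their share was lower. Doublet calls were also more frequent among cycling than among non-cycling cells, at 9.88% against 6.80% in wild-type Sertoli cells and 15.9% against 8.56% in Sertoli cells of the library labelled knockout. Without them the calls of *Dnmt1* and *Uhrf1* in cycling cells were kept.

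The size of the cycling effect differed between Sertoli cells and stroma. The test of that difference gave a log2 value of -0.94 ± 0.09 SE for *Dnmt1* (edgeR adjusted p = 2.4e-09) and -1.13 ± 0.12 for *Uhrf1* (adjusted p = 9.9e-09), both smaller in Sertoli cells. For *Dnmt1* the levels in cycling cells were alike (137 and 142 CPM in Sertoli cells, 142 and 137 CPM in stroma), whereas non-cycling Sertoli cells held 77.6 and 73.0 CPM against 38.4 and 34.5 CPM in stroma. For *Uhrf1* both ends were closer in Sertoli cells, with more in non-cycling and less in cycling cells than in stroma. *Tet3* (0.37 ± 0.10, adjusted p = 0.0098) and *Dnmt3a* (0.31 ± 0.08, adjusted p = 0.011) differed the other way, and these calls were lost under 6 of 8 alternatives each. *Tet1* (0.33 ± 0.17), *Tet2* (0.18 ± 0.13) and *Dnmt3b* (0.20 ± 0.33) did not pass. Of all genes 14.9% passed this test, 1431 of them higher and 839 lower, or 608 and 1291 with DESeq2's size factors, and the median of all genes was 0.126 and 0.00 in turn.

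Finer classes of *Mki67* and *Top2a*, chosen after the first results, showed that the rise was not monotonic. In wild-type stroma *Uhrf1* was at 15.1 CPM in cells with 0 of these UMIs, 47.3 CPM with 1, 84.9 CPM with 2 to 3, 149 CPM with 4 to 9 and 215 CPM with 10 to 19, and then at 117 CPM in cells with 20 or more. Wild-type Sertoli cells ran 20.9, 48.1, 63.7, 105 and 178 CPM and then 65.2 CPM. *Dnmt1* went from 203 to 127 CPM over the last 2 classes in wild-type Sertoli cells. In wild-type stroma it went from 175 to 144 CPM and in wild-type myoid cells from 165 to 155 CPM, and there the intervals of the last 2 classes overlapped. *Dnmt1* in the library labelled knockout went from 203 to 132 CPM in Sertoli cells and from 171 to 133 CPM in stroma, with intervals that did not overlap. In the library labelled knockout *Uhrf1* was at 196 and then 73.5 CPM in Sertoli cells and at 237 and then 118 CPM in stroma. The intervals of the last 2 classes did not overlap for *Uhrf1* in these 4 cases, nor in wild-type myoid cells, where it was at 206 and then 109 CPM. *Top2a* and *Mki67* are known to be highest in G2 and mitosis, and DNA is copied before that. The class with 20 or more UMIs made up 531 of 769 cycling Sertoli cells and 298 of 511 cycling stromal cells in wild type. The part of this make-up in the difference between the types was not tested.

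**Figure D3:**
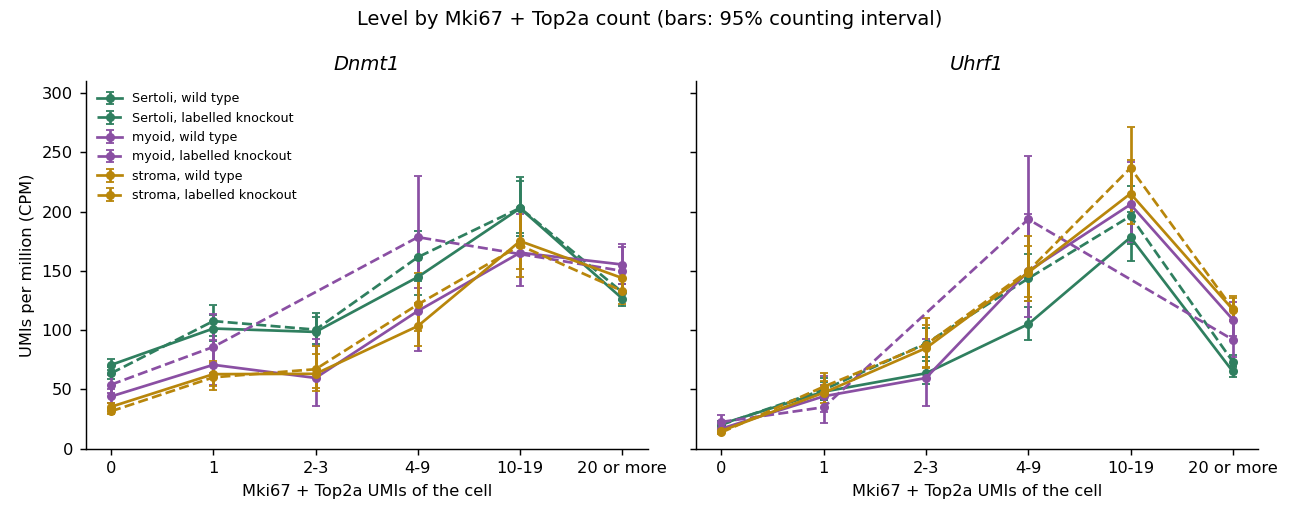
CPM of *Dnmt1* (left) and *Uhrf1* (right) against the number of *Mki67* and *Top2a* UMIs in a cell, for Sertoli, myoid and stromal cells of the wild-type library (solid) and the library labelled knockout (dashed), with 95% Poisson intervals. Classes with under 20 cells are left out. In Sertoli cells and stroma of both libraries and in wild-type myoid cells *Uhrf1* peaks in the class of 10 to 19 and is lower in the last. Peaks are at 215 CPM in wild-type stroma, 206 CPM in wild-type myoid and 178 CPM in wild-type Sertoli cells.

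Non-cycling cells were then compared between somatic types, each against the mean of the other 3 in the same fit. Large shares of all genes passed, 58.3% for Leydig cells, 55.8% for myoid cells, 68.3% for Sertoli cells and 60.6% for stroma, so a pass by itself says little of a member and its size and direction are given instead. Leydig cells, which make testosterone, stood lowest for the maintenance pair. *Uhrf1* was at 1.54 and 3.03 CPM there (log2 fold change -3.30 ± 0.30 SE, edgeR adjusted p = 2.4e-11) and *Dnmt1* at 20.3 and 15.2 CPM (-1.55 ± 0.13, adjusted p = 8.8e-12). The *Uhrf1* values rest on 4 and 7 UMIs. *Tet1* (-1.37 ± 0.19), *Tet3* (-0.86 ± 0.11) and *Dnmt3a* (-0.41 ± 0.08) were lower as well, with adjusted p of 2.0e-07, 3.4e-08 and 3.4e-05. *Tet2* (0.07 ± 0.12) and *Dnmt3b* (-0.72 ± 0.41) did not pass. Under a stricter filter on cells (3000 genes or more, mitochondrial share up to 5%), Leydig cells shrank from 166 to 31 and from 129 to 18, and the *Tet1* call was lost (adjusted p = 0.13).

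Sertoli cells, the nurse cells of the seminiferous cords, showed the opposite for the maintenance pair. *Dnmt1* was 2.27-fold higher than in the other types (1.18 ± 0.07, adjusted p = 2.2e-16) and *Uhrf1* 2.70-fold higher (1.43 ± 0.13, adjusted p = 2.7e-11). The mean of the others includes the low values of Leydig cells. Non-cycling Sertoli cells held *Dnmt1* at 77.6 and 73.0 CPM beside 48.1 and 58.4 CPM in myoid cells, and the *Uhrf1* levels of 27.0 and 26.6 CPM in non-cycling Sertoli cells stood beside 21.0 and 24.3 CPM in myoid cells and 18.6 and 17.7 CPM in stroma. *Dnmt3b* was higher too, at 7.71 and 8.10 CPM in non-cycling Sertoli cells against 1.30 to 4.77 CPM over the other types and libraries (1.34 ± 0.20, adjusted p = 7.0e-07). *Tet2* (-0.9998 ± 0.0858, adjusted p = 4.3e-12) and *Tet1* (-0.81 ± 0.12, adjusted p = 7.2e-07) were lower. *Dnmt3a* (-0.17 ± 0.05) and *Tet3* (0.16 ± 0.07) passed with small values, and the alternatives took these calls away in 2 and 3 of 7 cases.

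Myoid cells, the contractile layer around the cords, and stroma shared high *Tet1*. Non-cycling myoid cells held it at 27.2 and 34.6 CPM (1.02 ± 0.12, adjusted p = 1.3e-08) and stroma at 31.8 and 35.1 CPM (1.16 ± 0.10, adjusted p = 3.7e-12), against 10.8 and 13.7 CPM in Sertoli and 9.98 and 7.79 CPM in Leydig cells. No value of the former types overlapped those of the latter. *Tet2* was higher in both as well (0.44 ± 0.10 in myoid cells, 0.49 ± 0.07 in stroma), and *Tet3* was 0.54 ± 0.08 higher in myoid cells. The small *Tet3* (0.16 ± 0.06) and *Dnmt1* (-0.18 ± 0.08) values of stroma passed but were lost under 5 and 4 of 7 alternatives. *Uhrf1* was higher in myoid cells (1.16 ± 0.17) and stroma (0.71 ± 0.15), each against a mean that includes the low value of Leydig cells. In myoid cells *Dnmt1* (0.55 ± 0.09, adjusted p = 3.6e-06) and *Dnmt3a* (0.40 ± 0.06, adjusted p = 8.7e-07) were higher against that mean as well, and *Dnmt3b* did not pass (-0.11 ± 0.31). In stroma *Dnmt3a* passed with a small value (0.18 ± 0.05, adjusted p = 0.0018) that was lost under 1 of 7 alternatives, and *Dnmt3b* did not pass (-0.51 ± 0.24, adjusted p = 0.065) but did under 2 of 7.

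The ranges over all cycle states order the remaining members. *Dnmt3a* was found at similar levels everywhere, from 69.7 to 106 CPM across somatic types and libraries, and at 115 CPM (102 to 129) in wild-type germ cells, an interval that overlapped that of wild-type myoid cells (97.1 CPM, 90.7 to 104). *Dnmt3b* was at 39.7 CPM in wild-type germ cells, 9.25 and 9.33 CPM in Sertoli cells and at most 4.62 CPM in the others, whose intervals overlapped. *Tet1* ran from stroma (30.5 and 34.1 CPM) and myoid cells (25.6 and 30.6 CPM) to Sertoli (10.9 and 13.3 CPM) and Leydig cells (11.4 and 7.65 CPM). Wild-type germ cells (12.5 CPM) could not be told from the last 2 types by their intervals. *Tet2* was at 35.5 to 38.0 CPM in myoid cells and stroma, 26.9 and 31.8 CPM in Leydig, 17.6 and 16.8 CPM in Sertoli and 6.42 CPM in wild-type germ cells. *Tet3* was at 64.8 and 68.7 CPM in myoid, 56.4 and 58.5 CPM in Sertoli, 51.7 and 56.3 CPM in stromal, 34.6 CPM at most in Leydig and 20.03 CPM in wild-type germ cells.

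Wild-type germ cells, the gonocytes of P2 testes, were set against the mean of the 4 somatic types of their library. This is 1 library, so ratios carry counting error only and no test. *Dnmt3l* was 96.0 times the somatic mean (95% counting interval 53.3 to 185), at 21.9 CPM against 0 CPM in Leydig cells to 0.55 CPM in stroma. *Dnmt3b* was 7.71 times (6.02 to 9.83), *Uhrf1* 4.597 times (4.18 to 5.05), *Dnmt1* 3.20 times (2.92 to 3.49) and *Dnmt3a* 1.37 times (1.21 to 1.54) the mean. The TET genes lay below it, *Tet2* at 0.22 (0.13 to 0.36), *Tet3* at 0.39 (0.29 to 0.51) and *Tet1* at 0.64 (0.43 to 0.90). Thus 4 of 8 members were at least 2-fold higher and 2 at least 2-fold lower, where 28.6% and 27.3% of all 17994 genes were, around a median log2 ratio of 0.11. The *Dnmt3l* ratio rests on 20 somatic UMIs and ranged from 35.3 to 209 over the alternatives. The other ratios ranged from 2.07 to 3.26 for *Dnmt1*, 3.31 to 5.46 for *Uhrf1*, 5.11 to 8.19 for *Dnmt3b*, 1.34 to 1.69 for *Dnmt3a*, 0.61 to 0.95 for *Tet1*, 0.17 to 0.53 for *Tet2* and 0.38 to 0.58 for *Tet3*.

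Few somatic cells held a *Dnmt3l* UMI. Its level was 2.49% of that in germ cells of the same library in wild-type stroma, 1.55% in wild-type myoid cells and 0.13% in wild-type Sertoli cells, and at most 0.23% in any somatic type of the library labelled knockout. Of the 7 germ markers outside the gate, *Sall4*, *Gtsf1* and *Tex101*, singled out after their values were seen, were at 243 to 259 CPM in germ cells of both libraries together and at most 0.130 CPM in any somatic type. By contrast, *Elavl2* was at 150 CPM in germ cells and 28.5 CPM in stroma. *Dnd1* was at 84.9 CPM in germ and 15.6 CPM in Leydig cells, and *Nanos3* at 20.3 CPM in germ and 5.32 CPM in Sertoli cells. *Nanos2* was at 2.57 CPM in germ cells and 0 CPM in the somatic types. The part of free RNA in the *Dnmt3l* values was not tested. Outside the germ gate a *Dnmt3l* UMI was found in 24 cells of the wild-type library and 30 of the library labelled knockout, 15 and 17 of them stromal. The highest count in such a cell was 5. The share of stromal cells with a *Dnmt3l* UMI was 0.445% of non-cycling wild-type cells and 0.795% in the other library, and at most 0.37% of Sertoli cells of either state and library had any.

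Among the 83 wild-type germ cells, 51 were cycling and 25 non-cycling. *Uhrf1* was at 241 CPM in the cycling and 93.1 CPM in the non-cycling cells, a ratio of 2.59 (1.92 to 3.55), and *Dnmt1* at 259 and 125 CPM, a ratio of 2.07 (1.60 to 2.72). *Dnmt3l* went the other way, at 13.3 CPM in cycling and 38.0 CPM in non-cycling cells, a ratio of 0.35 (0.19 to 0.66). The interval takes UMIs as independent, but 3 of the 25 non-cycling cells held 5, 5 and 3 of the 20 UMIs there, 2 of them at the limit of 1 *Mki67* or *Top2a* UMI, and the shares of cells with a UMI were 36% of non-cycling and 31.4% of cycling cells. *Tet2* (4.24 and 15.2 CPM, 8 UMIs each) and *Tet3* (15.4 and 30.4 CPM) had intervals below 1 as well, while those of *Dnmt3a*, *Dnmt3b* and *Tet1* included 1. *Tet1* (0.45, 0.19 to 1.10) was also past 2-fold by its point value. Of all genes with at least 20 UMIs, 5.62% were at least 2-fold higher and 7.64% at least 2-fold lower in cycling cells. Non-cycling germ cells were shallower, with a median of 18764 UMIs against 36375.

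The germ cells of the libraries, 83 against 12, were then compared. *Uhrf1* was found in 72 of 83 wild-type germ cells, with a median of 6 and at most 18 UMIs in a cell. None of the 12 germ cells of the library labelled knockout had a *Uhrf1* UMI. Their 463254 UMIs would hold 91.9 at the wild-type level, so *Uhrf1* was at least 30.6-fold lower, taking 3 UMIs summed over these cells as the floor, and the 95% interval of the ratio reached up to 0.0403. The 11 wild-type germ cells without *Uhrf1* had 4437 to 30468 UMIs, and the 12 cells had 12717 to 76562. *Dnmt1* was at 223 CPM in wild type and at 19.4 CPM in the 12 cells, 11.5-fold lower (ratio 0.087, 0.040 to 0.17). Of the 12 cells 6 had no *Dnmt1* UMI and the others 1 to 3, where the wild-type median was 6 and the highest 27.

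*Dnmt3l*, the cofactor of de novo methylation, was the reverse. It was at 278 CPM (232 to 331) in the 12 germ cells and at 21.9 CPM (16.6 to 28.3) in wild type, a ratio of 12.7 (9.25 to 17.6). The 12 cells, ordered by depth, had 0, 6, 2, 7, 7, 6, 17, 8, 16, 22, 20 and 18 *Dnmt3l* UMIs. The cell with 0 was also the shallowest, with 12717 UMIs and 2644 genes. In wild type 30 of 83 cells had any, with a median of 0 and a highest count of 9. Scaled to each cell's depth, 8 of the 12 cells lay above all but the highest wild-type cell (335 CPM) and 3 above that cell too. The 6 wild-type germ cells with at least 3 *Dnmt3l* UMIs held between 0 and 2 UMIs of *Mki67* in 5 cases and 18 in the other, and 3 of them were non-cycling. Of the 12 cells of the library labelled knockout 3 passed the cycling limit, through 4 to 10 UMIs of *Top2a* with *Mki67* at 0 or 1, where cycling wild-type germ cells had medians of 7 *Mki67* and 12 *Top2a* UMIs.

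**Figure D4:**
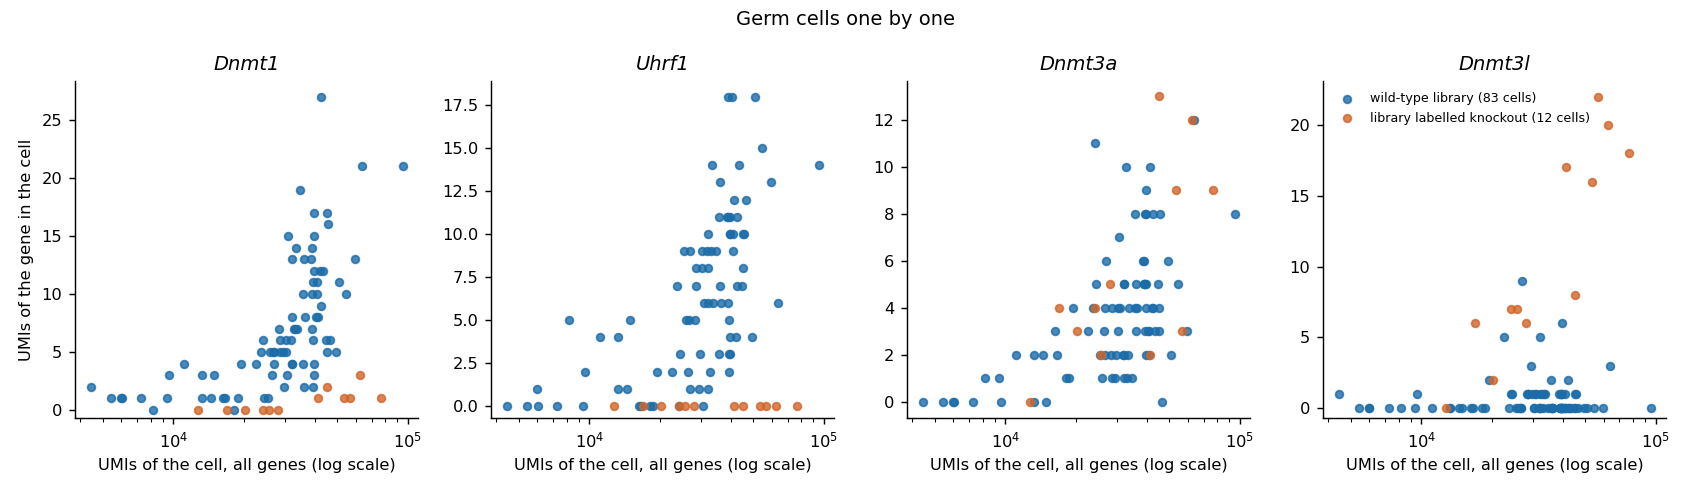
Each germ cell of the wild-type library (blue, 83 cells) and of the library labelled knockout (orange, 12 cells), by its total UMIs (x axis, log scale) and its UMIs of *Dnmt1*, *Uhrf1*, *Dnmt3a* or *Dnmt3l* (y axis). At like depth the 12 cells lie at 0 for *Uhrf1* and at 0 to 3 for *Dnmt1*, among the wild-type cells for *Dnmt3a*, and up to 22 UMIs for *Dnmt3l*, where the highest wild-type cell has 9.

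*Dnmt3a*, the catalytic partner of DNMT3L, was at 142 and 115 CPM, with an interval of the ratio that included 1 (1.24, 0.94 to 1.62), with UMIs in 11 of 12 and 74 of 83 cells. *Dnmt3b* was lower, at 8.63 CPM against 39.7 CPM (ratio 0.22, 0.058 to 0.57), from 4 UMIs. The TET genes were too shallow for a statement, with 2 *Tet1*, 6 *Tet2* and 8 *Tet3* UMIs in the 12 cells and ratios of 0.35 (0.040 to 1.35), 2.02 (0.65 to 5.36) and 0.86 (0.35 to 1.83). By point value 2 of the 8 members were at least 2-fold higher and 4 at least 2-fold lower. *Tet2*, 1 of the 2, was at 0.97 under the stricter filter on cells, 0.58 without the 3 cycling cells and 0 in non-cycling cells, so its direction is not stable. Of all 10841 genes with at least 20 UMIs 9.08% were at least 2-fold higher and 41.0% at least 2-fold lower, so the number of lower members is near the background, and the median log2 ratio of all genes was -0.71. Ribosomal protein genes held 34.2% of UMIs in the 12 cells and 16.1% in wild-type germ cells. A count of 0 was rarer than a lower value: of the 1789 genes for which at least 50 UMIs would be present at the wild-type level, 3, or 0.17%, were at 0, and *Uhrf1* was among them.

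Several features of the cells moved with this comparison, and their part in it was not tested. Of 125 wild-type germ cells 42 had been left out because they passed another gate, 39 of them that of Sertoli cells, and none had been in the other library. With these cells kept the ratios were 14.3 for *Dnmt3l*, 0.0945 for *Dnmt1* and 0 for *Uhrf1*. The germ markers outside the gate summed to 1084 CPM in wild type and 609 CPM in the 12 cells, with 2 of 7 at 0 in the latter. Sertoli markers summed to 143 and 77.7 CPM and macrophage markers to 98.6 and 6.48 CPM, whereas stromal markers summed to 216 and 309 CPM, endothelial markers to 37.8 and 79.9 CPM, Leydig markers to 169 and 175 CPM and myoid markers to 50.3 and 56.1 CPM. Among non-cycling germ cells, 25 of wild type and 5 of those labelled knockout, *Dnmt3l* was at 38.0 and 221 CPM (ratio 5.81, 3.02 to 11.2), and the 5 cells held no UMI of *Dnmt1* or *Uhrf1*, against 125 and 93.1 CPM in wild type. Under the stricter filter on cells 23 and 11 germ cells were left, and the *Dnmt3l* ratio was 5.85 (3.95 to 8.91).

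The same ratios were near 1 in somatic cells, where no CRE UMI was counted. Of the 28 ratios of members other than *Dnmt3l* in the 4 somatic types, those with at least 20 UMIs over both libraries lay between 0.67 and 1.23, with *Uhrf1* in Leydig cells (2.05, 0.82 to 5.59, from 15 and 8 UMIs) outside. It was the only such value past 2-fold. Of all genes 2.88% were past 2-fold in either direction in Sertoli cells, 3.13% in Leydig cells, 2.19% in myoid cells and 2.65% in stroma. Intervals that left out 1 were those of *Uhrf1* (1.16, 1.09 to 1.24) and *Tet1* (1.23, 1.06 to 1.42) in Sertoli cells, and of *Dnmt1* (0.91, 0.85 to 0.98), *Dnmt3a* (1.12, 1.06 to 1.18), *Tet1* (1.12, 1.02 to 1.23) and *Tet3* (1.09, 1.01 to 1.17) in stroma. They cover counting error only, and a difference of this size between 2 libraries has no replicate to be set against. Some markers of other types differed too, wild type first: stromal markers in Sertoli cells (414 and 688 CPM), and macrophage markers in stroma (19.5 and 111 CPM) and Leydig cells (79.1 and 203 CPM). Others were alike, such as Leydig markers in Sertoli cells (238 and 221 CPM) and endothelial markers in stroma (151 and 150 CPM). Their part in the ratios was not tested.

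**Figure D5:**
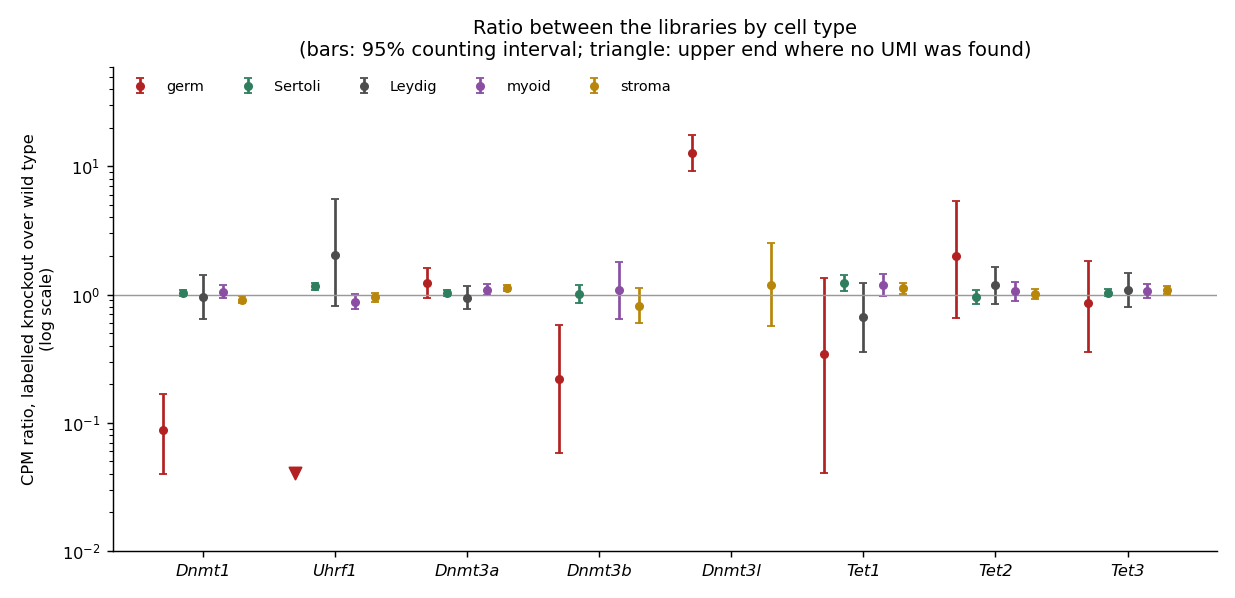
Ratio of CPM, library labelled knockout over wild type (y axis, log scale), for each member and cell type (colours), with exact 95% counting intervals. Pairs with under 20 UMIs over both libraries are left out, and the triangle gives the upper end of 0.040 for *Uhrf1* in germ cells, where no UMI was found. Germ cells lie far from 1 for *Dnmt1*, *Uhrf1*, *Dnmt3b* and *Dnmt3l*, and somatic types lie between 0.67 and 1.23 except *Uhrf1* in Leydig cells at 2.05.

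Cells with a UMI were counted as shares, raw and after each cell was thinned to 5000 UMIs, which left out 145 of 10745 cells. Thinned, *Uhrf1* was found in 31.3% and 31.9% of cycling Sertoli cells and 9.61% and 9.71% of non-cycling ones (68.1%, 70.6%, 21.0% and 23.5% before thinning). In stroma the thinned shares were 46.9% and 41.9% against 7.30% and 5.71% (73.0%, 79.4%, 11.8% and 10.9% before). Non-cycling Leydig cells gave 0.63% and 1.64%. In cycling and non-cycling wild-type germ cells the thinned share was 82.4% and 40%. *Dnmt3l* was found in 4 of 51 and 3 of 25 of these after thinning, and in 9 of the 12 germ cells of the library labelled knockout. In these types the shares of *Uhrf1* were higher in cycling than in non-cycling cells, as were the CPM values.

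Other genes of methylation control were counted from lists chosen with earlier results of these data known. Of 10 maintenance partners 9 were tested, and 6 rose in cycling cells of each of the 3 types, with 0 lower in Sertoli cells and 1 lower in each of the others, where 2110, 1452 and 2309 of the 15228 genes rose in Sertoli cells, myoid cells and stroma. Their median log2 fold change was 0.72 in Sertoli cells, 0.39 in myoid cells and 0.61 in stroma, against medians of all genes of 0.00, -0.12 and -0.14. *Pcna*, the sliding clamp, *Lig1*, which joins Okazaki fragments, and *Cdca7l*, a relative of the HELLS activator *Cdca7*, led in all 3 types (1.82 ± 0.08, 2.01 ± 0.07 and 2.04 ± 0.18 in stroma, with adjusted p of 6.7e-20, 9.3e-17 and 4.2e-10). In Leydig cells 7 of the 9 were lower than in other non-cycling types and none higher, where 4611 of the 15228 genes were lower and 4264 higher, with *Cdca7* at -3.09 ± 0.37 (adjusted p = 1.6e-05). *Zfp57*, which guards imprints, was lower in Sertoli cells (-2.42 ± 0.14, adjusted p = 9.4e-17) and higher in myoid cells (1.71 ± 0.11, adjusted p = 1.5e-14).

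Of 6 de novo partners tested 1, *Ctcf*, rose in myoid cells and stroma (0.75 ± 0.07 and 0.86 ± 0.06), and 2 rose in Sertoli cells. Of 8 methyl-CpG readers 1 rose and 1 fell in myoid cells, 1 rose in Sertoli cells, and 3 rose and 2 fell in stroma, where 23.1%, 25.6% and 41.8% of all genes passed in turn. Of 12 genes of base excision and demethylation 3 rose in myoid cells and in Sertoli cells and 5 in stroma, while 1, 3 and 1 fell in turn. *Neil3*, a glycosylase known to be made in dividing cells, rose most (5.36 ± 0.15 in Sertoli cells, 6.62 ± 0.12 in stroma). *Ung*, the uracil glycosylase, fell in cycling Sertoli cells (-0.52 ± 0.08) and rose in cycling stroma (0.53 ± 0.14). Of 13 cofactor genes of TET enzymes and methyl donors 3 fell in myoid cells, 2 in Sertoli cells and 4 in stroma, *Ogt* among them in each, and 2 or 3 rose. In non-cycling Sertoli cells 10 of the 12 excision genes were higher than in other types, with *Gadd45b* at 4.08 ± 0.13 and *Ung* at 2.76 ± 0.10, where 5411 of all genes were higher and 4991 lower.

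In germ cells the same lists held 5 of 9 maintenance partners, 5 of 8 de novo partners, 1 of 8 readers, 4 of 13 excision genes and 3 of 13 cofactor genes at least 2-fold above the somatic mean of the wild-type library, and 1, 0, 1, 5 and 5 in turn at least 2-fold below it, where 28.6% and 27.3% of all genes were. The median log2 ratios were 1.19, 1.32, 0.12, 0.01 and -0.14. *Hells*, a remodeller needed for maintenance methylation, stood at 496 CPM against a somatic mean of 51.2 CPM, and *Morc1* at 75.6 CPM against 0.0317 CPM. Between the libraries, 5 of 9 maintenance partners were at least 2-fold lower where the label reads knockout and none was higher (median log2 ratio -1.04), where 41.0% of all genes were lower and 9.08% higher. *Dppa3*, with 11 UMIs against 3 and so under the minimum of 20, was at 23.7 and 1.13 CPM. The lower ones included *Hells* (60.4 CPM against 496 CPM), *Uhrf2* (15.1 against 78.2 CPM) and *Pcna* (71.2 against 298 CPM). Of 8 de novo partners 3 were higher, *Kdm1b*, a demethylase needed for imprints in oocytes (270 against 66.1 CPM, ratio 4.08, 3.22 to 5.16), *Ehmt2* (2.25) and *Zfp42* (2.26), and 2 were lower. Readers were higher in 2 and lower in 3 of 7 cases, excision genes in 0 and 1 of 9, with *Ung* at 4.32 against 241 CPM, and cofactor genes in 1 and 6 of 12, where *Shmt2* and *Ahcy* had no UMI in the 12 cells.

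Genes whose pattern was most like that of a member were found by Pearson's r of log2(CPM + 10) over 16 sums of library, type and cycle state with at least 10 cells, among 11548 genes with at least 500 UMIs. Among the nearest to *Dnmt1* were *Tipin* and *Supt16* (r = 0.987 and 0.986), and among the nearest to *Uhrf1* were *Cenps* and *Pcna* (0.989 and 0.986). *Dnmt3b* was nearest to *Noc4l* (0.992), *Dnmt3l* to *Hbs1l* and *Kdm1b* (0.984 and 0.982), *Tet1* to *Ptprk* (0.971), *Tet2* to *Degs1* (0.973), *Tet3* to *Scarb2* (0.963) and *Dnmt3a* to *Il13ra1* (0.933). The germ classes of the library labelled knockout, with 3 and 5 cells, were under that minimum, so the germ sums are wild-type only. *Dnmt3l* was at most 0.83 CPM in the somatic sums, so its r rests on the wild-type germ sums. The sums share libraries and gates and are not independent, so r is a description here.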

How the data were processed

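Dissociated P2 testes had been sequenced with 10x Chromium 3′ v3 chemistry. The authors made the deposited counts, UMIs per gene and barcode without normalization, and the submitters' processing notes name Cell Ranger 3.1.0, Seurat 3.1.5 and GRCm38. Strand settings are not given in the sources used here. The filter of the study (2000 genes or more, mitochondrial share up to 10%) was applied, and cells were gated as described. Somatic UMIs were summed per library, type and cycle state (14 sums, each with at least 20 cells) and tested in R 4.3.3 with edgeR 4.0.16 (TMM, filterByExpr, quasi-likelihood F-test, library as block, 6 residual degrees of freedom, Benjamini-Hochberg adjustment, threshold 0.05). In counts simulated for the comparison of cycling with non-cycling Sertoli cells over 14500 genes, 87.9% of 99 genes changed 2-fold and 40.4% of 94 changed 1.5-fold were recovered. The spread was fixed there above that of the fit, and types and libraries did not differ apart from the planted changes. These rates therefore do not give the recovery in the data themselves. Ratios of summed UMIs have exact conditional binomial intervals (for the mean of somatic types, an approximation in which that mean is given the count of a Poisson sum with its mean and variance), levels have exact Poisson intervals and shares Clopper-Pearson ones (95%), which cover counting error alone. Germ comparisons have no test. Python 3.11.15 and scanpy 1.11.5 (Scrublet) were used. All 8 members were named in every comparison (7 in the edgeR tests, where filterByExpr removed *Dnmt3l*), with up to 3 genes per partner list, by absolute log2 fold change among those that passed; partner genes of the germ comparisons, and fewer than 3 elsewhere, were picked after their values were seen. Members and lists were chosen with earlier results of these data known. Alternatives are DESeq2 1.42.0, its size factors, no filter, no library term, other limits for cycling, cells and gates, and doublets left out. Some of the genes most like *Dnmt1* and *Uhrf1* are not reported here.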

Additional observations from a re-analysis of the deposited data

Results flagged for a closer look

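The effect of cycling differed between Sertoli cells and stroma in the edgeR test of the difference for 4 members, a test that 14.9% of all genes passed. The median log2 value of all genes was 0.126 in this fit and 0.00 with DESeq2's size factors. Values of a library alone are from CPM without TMM scaling. The log2 value, Sertoli minus stroma, was -0.94 for *Dnmt1* and -1.13 for *Uhrf1*, so their rise in cycling cells was smaller in Sertoli cells. It was 0.31 for *Dnmt3a* and 0.37 for *Tet3*, whose share was lower in cycling stroma and hardly differed in cycling Sertoli cells. All 4 kept their sign in each library alone (wild type first), at -1.06 and -1.04 for *Dnmt1*, -1.28 and -1.19 for *Uhrf1*, 0.23 and 0.15 for *Dnmt3a* and 0.23 and 0.29 for *Tet3*, and the calls of *Dnmt3a* and *Tet3* were lost under 6 of 8 alternatives. Barcodes do not separate the 8 libraries of a genotype, so no library could be looked at as an outlier.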

How the results depend on the processing

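Of the 40 calls among 56 tested comparisons of members, 28 were kept under every alternative, *Dnmt1* and *Uhrf1* in all cycling contrasts and in their difference among them. Between 14.9% and 68.3% of all genes passed, depending on the contrast, so the number of calls by itself says little of the members. None of the 40 changed direction. Counts of called genes stayed within 1.5-fold of the main count in 60 of 64 cases. The exceptions were cycling Sertoli cells without the library term (2567 against 3900), the difference between Sertoli cells and stroma with DESeq2 (1225 against 2270) and without the library term (1180), and Leydig cells under the stricter cell filter (3717 against 8875), where 31 and 18 Leydig cells were left. In each library alone, with no test, the cycling log2 value was 1.41 to 1.67 for *Dnmt1* and 2.24 to 2.68 for *Uhrf1* in myoid cells, and 1.88 to 1.99 and 2.89 to 2.99 in stroma. Wild-type germ cells against the somatic mean gave *Dnmt1* ratios of 2.79 with gates as written, 2.07 under the stricter cell filter and 2.72 in non-cycling cells. *Uhrf1* gave 3.78, 3.31 and 5.46 and *Dnmt3l* 35.3, 209 and 196 in the same order. Between the libraries, germ cells gave *Dnmt3l* ratios of 5.85 under the stricter filter and 5.81 in non-cycling cells, where *Dnmt1* was at 0. The *Tet2* ratio of 2.02 turned to 0.97 under the stricter filter, 0.58 without the 3 cycling cells and 0 in non-cycling cells. The cause of these changes was not tested. Thinning moved 70 of 80 shares beyond their intervals. Chosen after the data were seen were the gates as written and the removal of germ cells between libraries, non-cycling germ against non-cycling somatic cells, and the finer cycle classes. No paired analysis was possible because barcodes carry no replicate numbers, beyond the library block that the edgeR fits already hold. The depth limits statements on germ cells, whose TET genes rest on 2 to 8 UMIs in 12 cells.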
